A study of Homo sapiens with 4 samples.

Results

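The BCL2 family apoptosis regulators described here are 10 genes of SK-BR-3, a widely used line of human breast cancer cells that carries amplified HER2 and a missense mutation of p53. They were chosen by symbol: BCL2, BCL2L1, MCL1, BCL2L2, BAK1, BID, BAD, BIK, BMF and BCL2L11, out of 19775 genes that had at least 1 Affymetrix probe set annotated to a single symbol. All 32 probe sets annotated to 1 of these symbols alone were taken, and 1 probe set that names BCL2L2 together with other genes was left out. The study had 4 groups with 1 array each. They were cells with p53 shRNA and Pontin siRNA, cells with p53 shRNA, cells with Pontin siRNA and control shRNA, and cells with control shRNA. All 4 had been through shRNA transfection and puromycin selection, the control with what the labels call both a control shRNA and an empty vector. RNA was taken 24 h after the siRNA step, in which the arms without Pontin siRNA carry the unexplained term sicon in their titles. Separate selection of the siRNA arms is not stated in the labels, and each group is 1 culture of 1 line.

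BCL2 family proteins decide whether the outer mitochondrial membrane is opened to release cytochrome c. Anti-apoptotic members such as BCL2, BCL-XL and MCL1 hold the pore-forming effectors BAK and BAX in check, and BH3-only members such as BIM and BID bind the anti-apoptotic proteins or activate the effectors directly. In HER2-driven breast cells, ERK signalling is known to mark BIM for degradation and AKT to phosphorylate BAD, so part of their control is at the protein and is not read by an RNA array. Wild-type p53 is known to induce several BH3-only genes. The RUVBL1 gene encodes Pontin, an ATPase found in chromatin remodelling complexes.

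Values are MAS5 signals as the authors scaled them, in arbitrary linear units, and ratios are log2. Each knockdown gave 2 matched pairs that share no array. The p53 pairs set p53 shRNA over control shRNA, and both knockdowns over Pontin siRNA alone. The Pontin pairs set Pontin siRNA over control shRNA, and both knockdowns over p53 shRNA alone. A gene or probe set was called where both ratios had 1 direction and were at least 1.5-fold, 0.585 in log2. Ratios are given first for the pair without and then for the pair with the other knockdown. With 1 array per group no difference has a replicate check and no p-value is given for a gene in these comparisons. Probe sets were kept from a mean signal of 15.3 upward, which is the median over the array, and are called bright from 110.3 upward, the 75th percentile. A gene's value is that of its brightest probe set.

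The siRNA target RUVBL1 had signals of 65.8 with both knockdowns and 127.4 with Pontin siRNA, against 398.2 with p53 shRNA and 477.7 with control shRNA. Of 7 genes listed for HER2-amplified luminal breast epithelium in general, 6 were bright, including ERBB2. The E-cadherin gene CDH1 lay between 1.8 and 13.0, did not pass the filter and is not taken as a marker of this line. Of 6 markers of other cell types, the leukocyte genes PTPRC and CD3E and the fibroblast gene COL3A1 did not pass the filter. The fibroblast gene COL1A1 had signals of 152.9 to 175.9. The endothelial gene CDH5, at 67.9 to 105.8, had p53 ratios of 0.36 and 0.63, and PECAM1, at 27.5 to 40.7, had 0.19 and 0.57. The part of such markers in the results was not tested. The array with both knockdowns stood apart: its median signal was 19.6, against 15.9 to 16.5 on the other 3, and its 18 hybridization control probe sets averaged 1.43 times those of the control array. It is the upper array of the second pair of each knockdown, and its part in the results below was not tested.

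Of the 32 probe sets, 27 were kept, 14 of them bright, and each of the 10 genes had at least 1 kept. BCL2 and BMF had no bright probe set. The 5 probe sets not kept belonged to BCL2, BCL2L1, MCL1 and BAD, with signals from 1.4 to 25.0, and they are not interpreted.

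**Figure D1:**
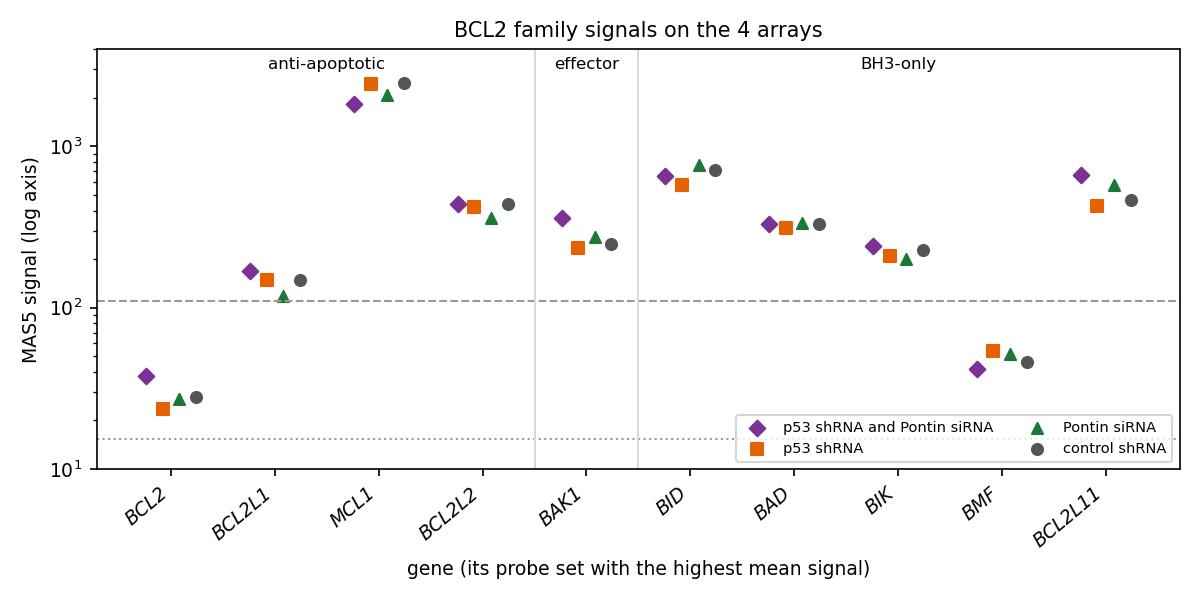
MAS5 signal (log axis, arbitrary units) of the 10 genes on each array, 1 point per array, by the brightest probe set of each gene. The dashed line marks a signal of 110.3 and the dotted line 15.3. BCL2 and BMF lie below the dashed line on all 4 arrays, and heights cannot be set against each other between genes because probe sets differ in response.

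No member met the 1.5-fold rule for either knockdown. For p53 shRNA 0 of 10 genes and 0 of 27 probe sets were called, where 2.25% of all 12066 genes kept and 2.16% of all probe sets kept were. For Pontin siRNA 0 of 10 genes and 0 of 27 probe sets were called, where the shares over all genes and probe sets kept were 2.4% and 2.71%. Against shares this low, counts of 0 are near the background. The members are therefore described below by their signals, by smaller ratios and by whether their probe sets and pairs ran the same way. A threshold of 1.1-fold in both pairs, 0.14 in log2, was added for this after the values were seen.

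The largest shift of a BH3-only gene belonged to BCL2L11, which encodes BIM, a strong activator of BAK and BAX, and it went with Pontin siRNA. Its main probe set, 225606_at, had a signal of 575.7 with Pontin siRNA, against 464.9 with control shRNA, and of 665.6 with both knockdowns, against 426.9 with p53 shRNA. The log2 ratios were 0.31 and 0.64. The same probe set was at -0.12 and 0.21 for p53 shRNA, so it had no common direction there.

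BCL2L11 was read by 7 kept probe sets, which disagreed. 1558143_a_at was also higher in both Pontin pairs, with 217.8 against 154.2 and 203.3 against 129.1, at 0.50 and 0.66. The dim 208536_s_at, with signals of 15.4 to 26.6, was at 0.52 and 0.56. The other 4 had opposite signs in the 2 pairs. Among them, the bright 1553096_s_at was at 0.22 and -0.18, and the dim 1555372_at at -0.17 and 1.01. Higher signal with Pontin siRNA was therefore seen on 2 of 3 bright and 3 of 7 kept probe sets, and which BIM transcripts each one reads was not analysed here.

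BAK1, which encodes the effector BAK and has a single probe set, followed a similar course. Its signal was 273.1 with Pontin siRNA, against 248.2 with control shRNA, and 361.7 with both knockdowns, against 234.1 with p53 shRNA. The Pontin ratios were 0.14 and 0.63, so the larger difference was on the array with both knockdowns. For p53 shRNA the ratios were -0.08 and 0.41.

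BCL2L11 and BAK1 had the largest mean Pontin ratios of the 10 genes, 0.47 and 0.38. They were the only members at least 1.1-fold higher with Pontin siRNA in both pairs, 2 of 10 genes where 15.3% of genes kept were. BAK1 only just passed, with 0.1379 in its first pair against a limit of 0.1375. On probe sets the count was 5 of 27, where the share over all probe sets kept was 16.8%. These counts are near the background.

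The sequences before the starts of these 2 genes are shown because both ran higher with Pontin siRNA. Each is 250 bases before and 50 after an annotated start, from RefSeq in build GRCh38.p14, written 5′ to 3′ on the gene's strand. The BCL2L11 window is chr2:111120664-111120963 on the plus strand, and the BAK1 window is chr6:33580227-33580526 on the minus strand. Capitals mark exact matches on either strand to GGGCGG (GC box), the box named by its letters CCAAT, or TGTTTAC (forkhead motif). No marked match overlaps another.
BCL2L11: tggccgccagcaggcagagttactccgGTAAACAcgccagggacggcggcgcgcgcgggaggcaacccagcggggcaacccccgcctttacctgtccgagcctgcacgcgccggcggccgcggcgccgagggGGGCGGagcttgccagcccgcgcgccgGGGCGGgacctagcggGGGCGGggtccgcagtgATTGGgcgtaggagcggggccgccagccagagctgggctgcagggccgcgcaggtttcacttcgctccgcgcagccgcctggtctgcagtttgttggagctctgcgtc
BAK1: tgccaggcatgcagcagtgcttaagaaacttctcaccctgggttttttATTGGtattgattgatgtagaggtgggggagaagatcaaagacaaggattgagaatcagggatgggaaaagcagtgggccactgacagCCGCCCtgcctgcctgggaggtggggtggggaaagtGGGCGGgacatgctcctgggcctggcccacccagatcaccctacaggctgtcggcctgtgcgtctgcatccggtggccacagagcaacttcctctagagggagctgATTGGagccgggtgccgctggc

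Of the 10 genes, 7 matched the promoter table, in 14 windows, since some have several starts. BCL2L11 had 3 GC boxes and 1 CCAAT box, and BAK1 had 2 of each. GGGCGG was held by 45.0% and CCAAT by 34.6% of all 35116 windows of this length. The forkhead motif was held by 3.42% of windows and, among the 14, only by that of BCL2L11, a gene known to be induced by FOXO3. TGACGTCA (CRE) and TTCNNNGAA (STAT motif), held by 1.85% and 7.66% of all windows, were in 0 of the 14. FOXO3 itself, on the brightest of its 4 probe sets, had Pontin ratios of -0.11 and -0.07 and p53 ratios of 0.20 and 0.24. Its other probe sets are not given, and a part of FOXO3 in the BCL2L11 signals was not tested. A match is a description of these letters alone.

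The other BH3-only genes had smaller Pontin ratios. BAD, which neutralises BCL2 and BCL-XL when not phosphorylated, was nearly level: its main probe set had 335.3 and 331.0 on the arrays with Pontin siRNA, against 330.4 and 309.9 on their matched arrays. Both bright BAD probe sets were above 0 in both Pontin pairs, by 0.02 to 0.16, where the same held for 15.4% of genes with at least 2 bright probe sets. BIK, which encodes a BH3-only protein of the endoplasmic reticulum, had 201.2 and 240.3 with Pontin siRNA, against 227.0 and 210.4, and the arrays overlapped. BMF, whose protein is held by dynein light chain at the cytoskeleton, was dim, at 52.0 and 41.5 with Pontin siRNA, against 46.2 and 53.9, and its arrays overlapped too.

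Among anti-apoptotic genes, MCL1 was lower with Pontin siRNA. MCL1 encodes a short-lived protein that binds BAK and BIM. Its main probe set, 200797_s_at, had 2067.5 with Pontin siRNA, against 2470.3 with control shRNA, and 1842.1 with both knockdowns, against 2444.7 with p53 shRNA. The log2 ratios were -0.26 and -0.41. The second bright probe set, 200798_x_at, had 767.9 against 897.0 and 770.4 against 843.6, at -0.22 and -0.13. On 214056_at, with signals of 64.9 to 89.9, the ratios were -0.32 and -0.43, and on 214057_at, with 65.2 to 112.1, -0.78 and -0.41.

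Of 5 kept MCL1 probe sets, 4 were thus below 0 in both Pontin pairs. The exception was the dimmest, 200796_s_at, with 20.4 against 22.4 and 32.9 against 22.3, at -0.13 and 0.56. Of genes with at least 2 bright probe sets, 16.5% had all of them lower in both Pontin pairs, so this direction is common on these arrays. MCL1 was the only 1 of the 10 genes at least 1.1-fold lower in both pairs, where 15.2% of genes kept were. On probe sets of all members the count was 5 of 27, against 14.3% of probe sets kept. These were 200797_s_at, 214057_at and 214056_at of MCL1, 203685_at of BCL2 and 231228_at of BCL2L1. The second bright MCL1 probe set was not among them. With p53 shRNA the main MCL1 probe set was at -0.02 and -0.17.

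**Figure D2:**
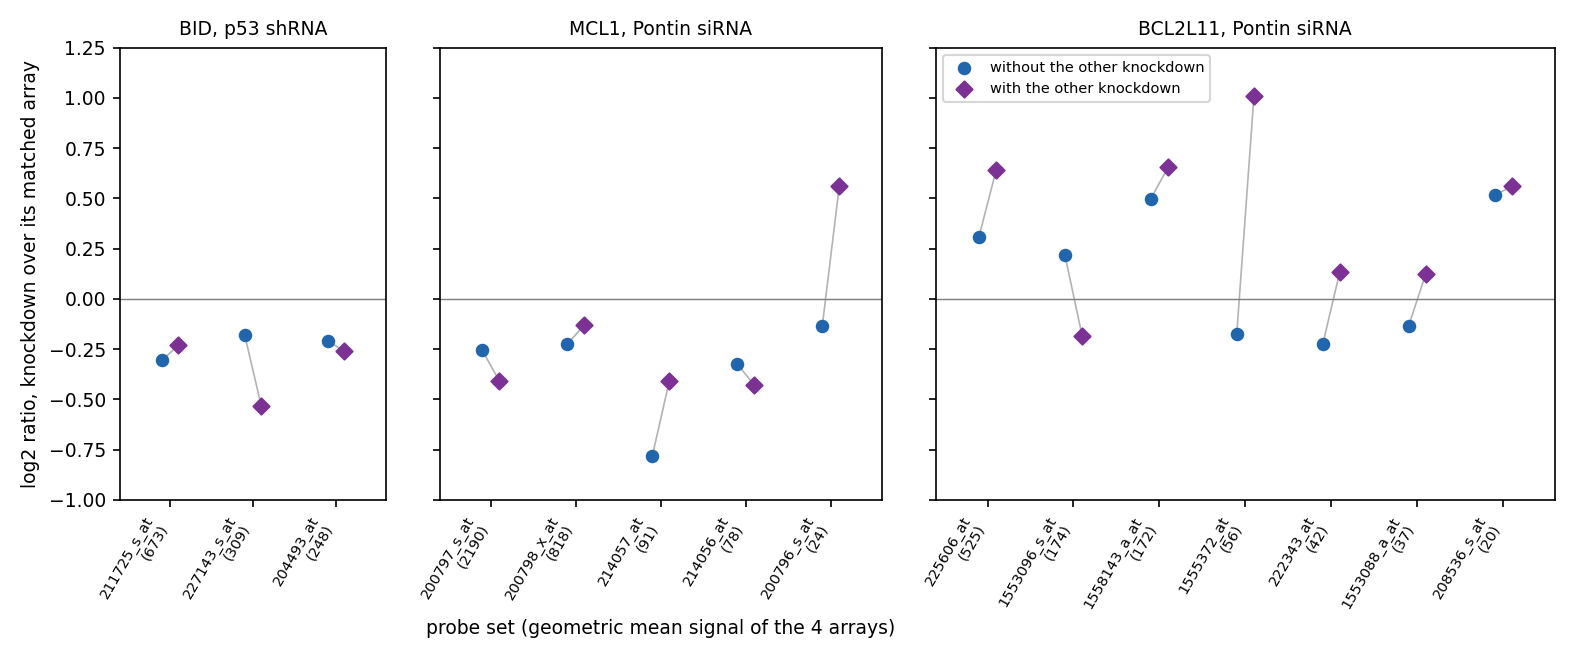
Log2 ratio on every kept probe set of BID for p53 shRNA, and of MCL1 and BCL2L11 for Pontin siRNA, ordered by mean signal (in brackets). Circles are the pair without and diamonds the pair with the other knockdown, 1 array on each side of a ratio. All 3 BID probe sets lie below 0 in both pairs, 4 of 5 MCL1 probe sets lie below 0 in both, and 3 of 7 BCL2L11 probe sets lie above 0 in both.

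BCL2L1, which encodes BCL-XL, and BCL2L2, which encodes BCL-W, had no common direction with Pontin siRNA. The bright BCL2L1 probe set had 118.3 with Pontin siRNA, against 149.3 with control shRNA, and 168.6 with both knockdowns, against 148.7 with p53 shRNA, at -0.34 and 0.18. BCL2L2 had 361.4 against 437.7 and 436.9 against 423.5, at -0.28 and 0.04. On both of these probe sets the array with Pontin siRNA alone was the lowest of the 4. Of the dim BCL2L1 probe sets, 215037_s_at, with signals of 24.5 to 31.2, was at 0.03 and 0.15, while 231228_at was at -0.44 and -1.95, with a signal of 8.9 on the array with both knockdowns and 19.9 to 34.3 on the others.

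BCL2 itself, a known target of the oestrogen receptor in luminal breast cells, was near the lower limit of the signals kept. Its main probe set, 207004_at, had 37.5 with both knockdowns, 23.4 with p53 shRNA alone, 27.1 with Pontin siRNA alone and 27.8 with control shRNA. The next, 203685_at, had 15.9, 31.4, 26.6 and 33.7 on the same arrays. The 2 probe sets ran opposite ways on the array with both knockdowns, and no direction is given for BCL2. Its signal here is low in all 4 cultures.

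With p53 shRNA, BID was the member whose probe sets and pairs all ran 1 way. BID links death receptors to mitochondria, since caspase 8 cuts it into its active form. The main probe set, 211725_s_at, had 576.8 with p53 shRNA, against 712.9 with control shRNA, and 652.6 with both knockdowns, against 766.1 with Pontin siRNA. The ratios were -0.31 and -0.23. On 227143_s_at the signals were 303.5 against 343.8 and 245.5 against 355.4, at -0.18 and -0.53. On 204493_at they were 209.8 against 242.6 and 248.8 against 297.7, at -0.21 and -0.26.

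All 3 BID probe sets were bright and at least 1.1-fold lower in both pairs. Of 2761 genes with at least 3 probe sets kept, 4.38% had all of them lower in both p53 pairs, and of the 4 such members only BID did. Of 2964 genes with at least 2 bright probe sets, the kind of probe set that BID has, 15.2% had all of those lower in both p53 pairs, so this direction is common among bright genes. BID was also the only 1 of the 10 genes at least 1.1-fold lower in both pairs, where 12.6% of genes kept were, and 0 members were that far higher, where 13.3% of genes were. Counted on probe sets, 4 of 27 were lower, 3 of them of BID, and 2 of 27 higher, against 12.6% and 13.2% of probe sets kept. With Pontin siRNA, BID was at 0.10 and 0.18 on its main probe set and at 0.30 and 0.25 on 204493_at. On 227143_s_at, however, it was at 0.05 without and -0.31 with p53 shRNA.

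Besides BID, only MCL1 and BAD were below 0 in both p53 pairs on the main probe set, and no member was above 0 in both. The BAD ratios of -0.09 and -0.02 were small, and its second bright probe set was at -0.00 and 0.05. BCL2L1 was at -0.01 and 0.51 on its main probe set and at 0.20 and 0.31 on 215037_s_at. BCL2L2 was at -0.05 and 0.27, BIK at -0.11 and 0.26, and BMF at 0.22 and -0.33. Over the 10 genes the median of the mean ratio was 0.06 with p53 shRNA and 0.03 with Pontin siRNA, beside -0.00 and 0.01 over all genes kept.

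**Figure D3:**
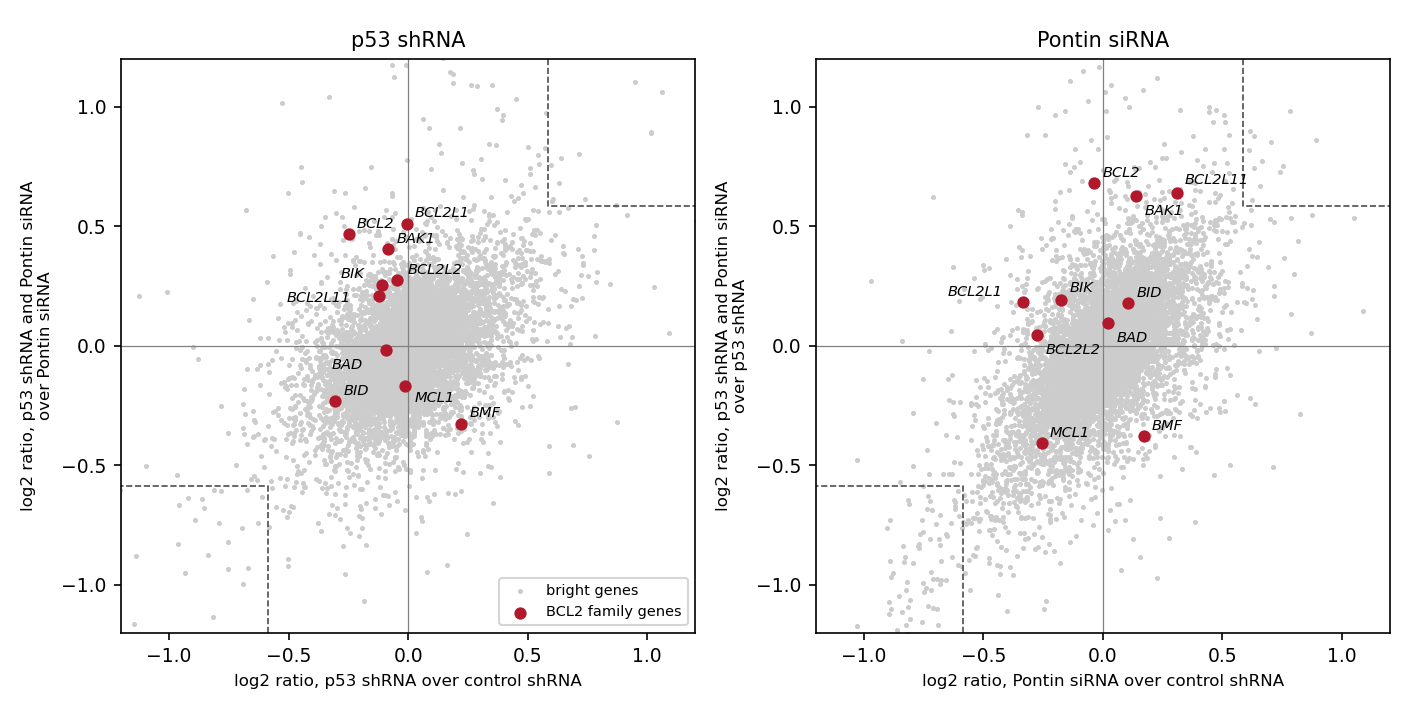
Log2 ratio of each gene in the pair without (horizontal) and with (vertical) the other knockdown, for p53 shRNA on the left and Pontin siRNA on the right. Red points are the 10 BCL2 family genes and grey points the 7744 bright genes, with dashed corners at 1.5-fold in both pairs. No family gene lies in a corner, and 9 of 10 lie left of 0 for p53 shRNA, where 3952 of the 7744 bright genes do.

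The signs of the 10 genes differed between the 2 p53 pairs. In the pair without Pontin siRNA 9 of 10 genes were below 0, with a median of -0.09, where 6008 of 12066 genes kept were below 0. Some were close to 0, such as BCL2L1 at -0.01 and MCL1 at -0.02, and all 10 ratios share the same control array. Their median size in that pair was 0.10, beside 0.16 over all genes kept and 0.12 over bright genes. In the pair with Pontin siRNA 6 of 10 were above 0, with a median of 0.23, where 5816 of 12066 genes kept were above 0. The median size of the members there was 0.26, beside 0.17 over all genes kept and 0.13 over bright genes. Over all genes kept the pair medians were 0.00 and -0.01. The departure from additivity takes the log2 signal with both knockdowns, subtracts the 2 single knockdowns and adds the control. It equals the second pair's ratio minus the first's for either knockdown. It was above 0 for 8 of 10 members, with a median of 0.33. Over all genes kept it was above 0 for 5701 of 12066, with a median of -0.02.

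BCL2 had the highest departure, 0.72, on a dim probe set. Next came BCL2L1 at 0.52, BAK1 at 0.49, BIK at 0.37, BCL2L11 at 0.33 and BCL2L2 at 0.32. BID and BAD were at 0.07 each, MCL1 at -0.15 and BMF at -0.55. Only BCL2 passed 1.5-fold, 1 of 10 genes where 13.1% of genes kept did. At 1.1-fold, 6 of 10 members departed upward and 2 of 10 downward, where 27% and 30.3% of genes kept did.

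Anti-apoptotic and pro-apoptotic genes both stood among the 6 upward departures. Among bright genes 95% of departures were smaller than 0.47 in size, a limit that BCL2L1 and BAK1 passed. Other probe sets did not repeat the value for every gene: BCL2 had a second probe set at -0.64, BCL2L1 others at 0.11 and -1.51, and MCL1 others from -0.11 to 0.70. With the mean over kept probe sets in place of the brightest, the median departure was 0.12. Array error and an interaction of the knockdowns cannot be told apart with 1 array per group. The depth of the Pontin knockdown also differed between its pairs. RUVBL1 had Pontin ratios of -1.91 without and -2.60 with p53 shRNA, a departure of -0.69. The part of this difference in the departures of the members was not tested.

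**Figure D4:**
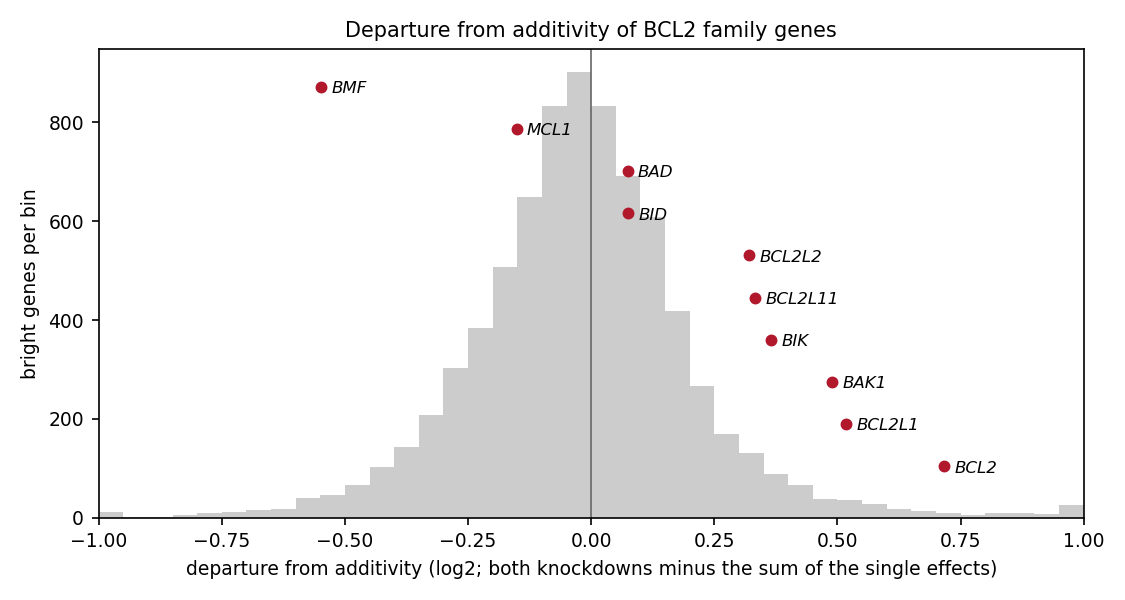
Departure from additivity in log2 for the 10 BCL2 family genes (red points, height only separates the names) over the distribution for the 7744 bright genes (grey bars, values beyond 1 in size in the end bars). BCL2L2, BCL2L11, BIK, BAK1, BCL2L1 and BCL2 lie between 0.32 and 0.72, and BMF at -0.55. BCL2 and BMF are dim and cannot be set against the grey bars. Among kept probe sets that are not bright, 95% of departures were smaller than 1.44 in size.

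In cells with both knockdowns compared directly with the control, 0 of 10 members were 1.5-fold apart, where 13.2% of genes kept were. BAK1 was the highest at 0.54, with BCL2L11 at 0.52 and BCL2 at 0.43, and MCL1 the lowest at -0.42. BID was at -0.13. The median was 0.04, beside 0.01 over all genes kept. The 3 comparisons share the control and double knockdown arrays, so their values are not independent.

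Genes whose log2 signals over the 4 arrays, each minus its own mean, lay nearest to the 2 members with the largest mean ratio were sought among 7743 other bright genes. For BCL2L11 they were SFXN1, PLXNA1 and IER5L, with largest differences on any array of 0.03, 0.07 and 0.07, and 28 genes lay within 0.1. The nearest to BAK1 were IRF3, AP2B1 and KLC3, with 0.02, 0.05 and 0.05, and 24 genes lay within 0.1. A likeness over 4 arrays is a weak measure.

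Other BCL2 family genes gave a like picture, with 0 of 5 genes kept called for either knockdown. PMAIP1, which encodes the BH3-only protein NOXA that binds MCL1, had 95.9 with p53 shRNA, against 150.3 with control shRNA, and 111.6 with both knockdowns, against 134.7 with Pontin siRNA. That is -0.65 and -0.27, but on its second probe set the mean of the pairs was 0.10. BAX, the effector next to BAK, had p53 ratios of -0.04 and 0.04 and Pontin ratios of 0.13 and 0.21, and both of its probe sets were above 0 in both Pontin pairs. BOK, an effector-like member, was at 0.14 and 0.36 with Pontin siRNA, and BCL2L13, a mitochondrial outer membrane member, at 0.24 and 0.21 with p53 shRNA. Of the 4 kept BCL2L13 probe sets, however, only 1 was above 0 in both p53 pairs and 1 was below, with means from -0.17 to 0.22. The list medians were 0.00 with p53 shRNA and 0.15 with Pontin siRNA.

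Downstream of the mitochondrion, 0 of 13 genes kept of the apoptosome, caspase and IAP list were called for either knockdown. APAF1, the scaffold of the apoptosome, had 160.9 with p53 shRNA, against 124.3 with control shRNA, and 186.5 with both knockdowns, against 155.4 with Pontin siRNA, which is 0.37 and 0.26. Its other kept probe set was below 0 in both pairs, with a mean of -0.39. CASP6, an executioner caspase gene, was at 0.36 and 0.22 with p53 shRNA, and both of its kept probe sets were above 0 in both pairs. HTRA2, a mitochondrial protease gene that counters IAPs, was at 0.46 and 0.26 with Pontin siRNA, again on both kept probe sets. BIRC2, which encodes the IAP ubiquitin ligase cIAP1, was at -0.33 and -0.28 with Pontin siRNA on its single probe set. The medians were 0.01 with p53 shRNA and 0.06 with Pontin siRNA.

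In the death receptor arm upstream of BID, 0 of 9 genes kept were called for either knockdown. TNFRSF10B, a TRAIL receptor gene, had 363.6 with p53 shRNA, against 525.5 with control shRNA, and 508.3 with both knockdowns, against 566.9 with Pontin siRNA. The ratios were -0.53 and -0.16. The means of its 3 kept probe sets lay between -0.48 and -0.18, but only 2 of the 3 were below 0 in both p53 pairs. With Pontin siRNA it was at 0.11 and 0.48, but its probe sets ranged from -0.44 to 0.40. FAS was dim, at 12.8 to 27.8, with p53 ratios of -0.65 and -0.45 and Pontin ratios of -0.67 and -0.47. The medians were -0.00 and -0.08.

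Among 17 partners and regulators of BCL2 family proteins, 1 was called, higher with p53 shRNA, where 1.38% of genes kept and 0.22% of bright genes were. The list was chosen with earlier results of these data known, so this count is not read as a result about it. The called gene was BNIP3L, a BH3-like mitophagy receptor gene, with 759.4 with p53 shRNA, against 490.7 with control shRNA, and 845.1 with both knockdowns, against 527.8 with Pontin siRNA. The p53 ratios were 0.63 and 0.68, and its second probe set gave a mean of 0.69. Its relative BNIP3 had mean p53 ratios of 0.55 and 0.39 on its 2 probe sets. Pontin siRNA gave 0 calls: of the dynein light chains that bind BIM and BMF, DYNLL1 was at -0.20 and -0.49 on 1 probe set, and DYNLL2 at 0.25 and 0.40, above 0 in both pairs on all 3. The medians were 0.07 with p53 shRNA and 0.08 with Pontin siRNA.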

How the data were processed

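RNA from 4 SK-BR-3 cultures was hybridised to 1 array each, from 200 ng of total RNA per the labels. The deposited values are linear MAS5 signal intensities, as named in the submitters' processing notes. Trimmed by 2% at either end, every array averaged 150.0, so the authors had scaled the arrays. Each group came from the sample title. Of 54675 probe sets, 41091 carried 1 symbol besides controls, 1801 several and 11777 none listed. Symbols were updated through Entrez identifiers, matching 41037. Names rest on the platform annotation.

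Signals were taken to log2 with no pseudocount and no further normalization. The 14 zeros, none in a family probe set, were set to 0.1. Filters were a mean signal of 15.3 (kept: 22794 probe sets, 12066 genes) and 110.3 (bright: 7744 genes), computed without 62 control probe sets. Calls needed 1.5-fold in both matched pairs. Alternatives used limma 3.58.1 in R 4.3.3. The number of arrays limits the precision. Members and lists were chosen with earlier results of these data known. Named genes were all members, the called genes and the 2 largest mean ratios per knockdown in each other list, and the 3 genes nearest the 2 members with the largest ratio. FOXO3 falls outside this rule and was named after its values were seen, and the cell type markers are a list of their own. Some genes of these lists were not analysed here, nor was the transcript targeted by the p53 shRNA.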

Additional observations from a re-analysis of the deposited data

Results flagged for a closer look

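One dim BCL2L11 probe set, 1555372_at, was over 1.5-fold apart in both p53 pairs with opposite signs. It had 39.4 with p53 shRNA, against 59.4 with control shRNA, and 79.3 with both knockdowns, against 52.7 with Pontin siRNA, log2 ratios of -0.59 and 0.59 and a departure from additivity of 1.18. The difference between the pairs was not tested, and the other 6 kept probe sets of the gene departed by -0.40 to 0.36.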

How the results depend on the processing

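With 1 array per group and no replicate numbers in the labels, no replicate could be left out and no fit with a replicate block was possible beyond the matched pairs. The counts of 0 members called for either knockdown held under quantile, cyclic loess and median-centred values, a pseudocount of 16, no filter, bright probe sets alone, the mean over probe sets, without _x_at, _s_at and _a_at probe sets, and at 1.3-fold and 2-fold. At 1.1-fold they were 1 for p53 shRNA and 3 for Pontin siRNA, where 25.9% and 30.4% of genes kept were called. An additive limma fit, which takes the 2 pairs as replicates with 1 residual degree of freedom, gave 0 members and 0 of 12066 genes with an adjusted p under 0.05 for either knockdown, and 0 and 2 members at an unadjusted p under 0.05, where 11.5% and 14.4% of genes had one. Members apart between both knockdowns and control numbered 4 at 1.3-fold and 6 at 1.1-fold, where 26.6% and 64.2% of genes kept were apart. Members departing from additivity numbered 8 at 1.1-fold and 4 at 1.3-fold, where 57.3% and 23.1% of genes kept did, and 0 at 2-fold, with the pseudocount and among bright probe sets alone. The median departure was 0.12 with the mean over probe sets and otherwise between 0.32 and 0.36. The median ratio of both knockdowns over control was -0.04 with the mean over probe sets. Mean ratios of single members kept their sign in 150 of 156 recomputations, but some of these could not differ. A gene's brightest probe set is the same with no filter and, where bright, among bright probe sets alone. BAK1, BIK and BMF have 1 probe set each, so the choice of probe sets could not change their ratios. The Pontin ratio lay between 0.28 and 0.49 for BCL2L11, 0.36 and 0.39 for BAK1 and -0.60 and -0.25 for MCL1, and the p53 ratio of BID between -0.29 and -0.23. Signs turned for BCL2, BCL2L2, BCL2L11 and MCL1, never on the ratios just named. Detection calls were not used here, so how far dim signals stand above background is unknown.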
